A study of Mus musculus with 12 samples.

Results

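Neurexin, neuroligin and LRRTM genes were measured by single-nucleus RNA sequencing in the cortex of mice aged 21 days. The genes were chosen by symbol and are 9 of the 55335 genes counted: the neurexins Nrxn2 and Nrxn3, the neuroligins Nlgn1, Nlgn2 and Nlgn3, and the LRRTMs Lrrtm1, Lrrtm2, Lrrtm3 and Lrrtm4. Tissue came from 6 wild-type (WT) and 6 heterozygous (Het) mice of the MYT1L S710fsX strain, and each genotype was represented by 3 male and 3 female animals. The strain is C57BL/6 and carries a frameshift in Myt1l, the gene of a neuronal zinc finger transcription factor. Het animals carry 1 mutant and 1 intact copy, and every animal was born to a WT and a Het parent. All 12 animals had received AAV9 with the hyPB and H2b-tdT-SRT constructs at birth, so no group is free of the virus. The animals came from 4 litters, and the labels do not tie an animal to its litter.

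Neurexins are presynaptic adhesion receptors that reach across the synaptic cleft. Neuroligins and LRRTMs (leucine-rich repeat transmembrane proteins) are postsynaptic ligands that compete for them, and the pairs formed help to set whether a contact matures as a glutamatergic or a GABAergic synapse. NLGN1 is known mostly from glutamatergic synapses, NLGN2 from GABAergic synapses and NLGN3 from both, while the LRRTMs are known from glutamatergic synapses. Variants in several of these genes are associated with autism, and MYT1L itself is a gene of a neurodevelopmental syndrome with autism and intellectual disability.

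The matrices held 78743 barcodes, of which 34862 (44.3%) were within the limits of the study on UMIs, genes and mitochondrial share (15102 from WT and 19760 from Het). No barcode occurred in more than 1 library. Total UMIs ranged from 23429386 to 59958572 per animal, and from 5357372 to 14821655 within the limits, with a median of 3180 UMIs per nucleus. Marker UMIs and a profile of other genes placed 26144 nuclei in 15 classes, with the 9 genes, their partners and all genes overlapping the 9 kept out of the profiles. The classes are called "-like" because they were rebuilt here from markers. They cover intratelencephalic (IT), near-projecting (NP) and corticothalamic (CT) excitatory neurons of layers 2 to 6, layer 6b (L6b), 5 interneuron classes named for a marker gene, oligodendrocytes and oligodendrocyte precursors (OPC). Profiles built from nuclei with markers of astrocytes, microglia, pericytes or CA1 neurons were left unnamed and enter no order of classes. The tissue is labelled cortex, but 691 dentate gyrus granule-like (DG-like) nuclei and 2899 striatal projection-like nuclei, which carried 2.7 UMIs of inhibitory markers each, were also present. UMIs of inhibitory markers averaged 0.042 to 0.101 per nucleus in the cortical excitatory classes and 2.797 to 9.365 in the interneuron classes. DG-like nuclei held 0.229 of them, and 0.603 UMIs of excitatory markers against 2.928 to 4.819 in the cortical excitatory classes. The DG-like profile was built from 48 reference nuclei. Levels are given as CPM, the UMIs of a gene in every 1000000 UMIs of that class in 1 animal, and they are compared between classes and animals, not between genes.

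Within the limits, the UMIs of each gene over all animals were 741289 for Nrxn3, 454736 for Nlgn1, 359442 for Lrrtm4, 67618 for Lrrtm3, 15835 for Nrxn2, 3528 for Nlgn2, 2600 for Lrrtm2, 2545 for Nlgn3 and 1830 for Lrrtm1. Libraries of nuclei hold unspliced RNA, and the part of gene length in these totals was not tested. Nrxn3 spans 1612 kb of chromosome 12 (mm10, chr12:88722876-90334935), Nlgn1 906 kb (chr3:25426215-26332460) and Lrrtm4 791 kb (chr6:80018877-80810143). At the other end Nlgn2 spans 14.7 kb (chr11:69823122-69837784) and Lrrtm2 6.02 kb. Nrxn2 lies at chr19:6418731-6544169. Lrrtm1 (chr6:77242689-77257791), Lrrtm2 and Lrrtm3 (chr10:63928472-64090277) sit inside Ctnna2, Ctnna1 and Ctnna3, the genes of α-catenins, each on the opposite strand. The strand setting of the counting is not given in the sources used here. Few entries of these nested genes were fractions of a UMI, 0.74% for Lrrtm1, 0.12% for Lrrtm2 and 1.56% for Lrrtm3, so almost none of their UMIs were divided with the gene around them. Nlgn3 (chrX:101299168-101325963) overlaps Gm21986 on the same strand (chrX:101295839-101321348). Of the entries of Nlgn3 44.82% were fractions, and 26.95% of its UMIs were lost when fractions were dropped, so its level is uncertain. For the 8 other genes that loss was at most 1.59%.

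Counts are summed over all transcripts of a gene, so forms that begin at different start sites are pooled. The table of RefSeq promoter windows used here (GRCm38.p6) was matched for 6 of the 9 genes, with 10 windows in all, each from 250 bases before to 50 bases after a start. The table gave more than 1 start for Nrxn3 (3), Nlgn1 (2) and Lrrtm4 (2). The windows of Nrxn3 and Lrrtm4 are shown because these genes differed most between the neuronal classes and because they held the only matches to AAGTTT, the core sequence known for the MYT1 family of factors. It was searched on both strands (reverse complement AAACTT), and its matches are in capitals.
Nrxn3, start 1, chr12:88794254-88794553, plus strand: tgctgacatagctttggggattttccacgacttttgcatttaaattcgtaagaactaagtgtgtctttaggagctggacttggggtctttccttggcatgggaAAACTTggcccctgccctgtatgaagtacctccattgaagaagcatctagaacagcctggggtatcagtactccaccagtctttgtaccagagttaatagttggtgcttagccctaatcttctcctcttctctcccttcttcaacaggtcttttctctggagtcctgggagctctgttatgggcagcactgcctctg
Nrxn3, start 2, chr12:88953140-88953439, plus strand: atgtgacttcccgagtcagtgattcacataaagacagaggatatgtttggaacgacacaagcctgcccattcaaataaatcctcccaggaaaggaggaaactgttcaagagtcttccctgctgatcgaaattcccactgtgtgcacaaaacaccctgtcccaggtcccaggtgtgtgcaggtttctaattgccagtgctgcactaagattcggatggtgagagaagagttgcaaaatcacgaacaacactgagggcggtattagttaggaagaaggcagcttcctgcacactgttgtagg
Nrxn3, start 3, chr12:89812233-89812532, plus strand: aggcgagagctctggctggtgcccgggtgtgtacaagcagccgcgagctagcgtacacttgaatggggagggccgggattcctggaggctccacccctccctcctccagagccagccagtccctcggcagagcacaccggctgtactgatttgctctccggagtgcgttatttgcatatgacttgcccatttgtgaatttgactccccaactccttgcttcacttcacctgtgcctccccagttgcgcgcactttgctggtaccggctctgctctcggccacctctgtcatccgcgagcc
Lrrtm4, start 1, chr6:80018627-80018926, plus strand: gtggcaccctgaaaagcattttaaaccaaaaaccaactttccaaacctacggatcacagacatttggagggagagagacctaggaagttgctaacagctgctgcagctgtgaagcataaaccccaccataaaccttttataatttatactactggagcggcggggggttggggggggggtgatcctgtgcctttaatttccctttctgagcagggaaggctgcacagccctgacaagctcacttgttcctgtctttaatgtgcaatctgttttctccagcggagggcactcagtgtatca
Lrrtm4, start 2, chr6:80019393-80019692, plus strand: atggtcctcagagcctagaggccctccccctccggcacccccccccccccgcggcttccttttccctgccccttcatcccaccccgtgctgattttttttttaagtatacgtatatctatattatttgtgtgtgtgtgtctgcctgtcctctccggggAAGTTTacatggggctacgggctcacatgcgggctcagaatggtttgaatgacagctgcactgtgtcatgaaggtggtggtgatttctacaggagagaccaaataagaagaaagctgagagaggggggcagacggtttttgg
A match was present in 2 of the 10 windows, start 1 of Nrxn3 and start 2 of Lrrtm4. Over all 32851 windows of the table the share with a match was 14.4%. A match of 6 letters is a description of the sequence and does not show binding.

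Of the neurexins, Nrxn3 differed most between classes. Its mean level was highest in Sncg-like interneurons, at 21313 ± 2306 CPM (SD, n = 12 animals), and 0.51 log2 units lower in Sst-like interneurons, which came next (14877 ± 669). Vip-like interneurons (14691 ± 867) did not differ from Sst-like beyond the spread between animals, while striatal projection-like (10819 ± 1602) and Pvalb-like nuclei (8109 ± 259) each stood a step lower. The exception among the interneurons was the Lamp5-like class at 3624 ± 315 CPM, below the L6 CT-like (7648 ± 482), L2/3 IT-like (5610.2 ± 506) and L4/5 IT-like excitatory neurons (4513 ± 517). Lowest of the neurons were DG-like nuclei at 741 ± 235 CPM, a 28.8-fold range over the neuronal classes. In oligodendrocyte-like nuclei Nrxn3 was at 218 ± 99.0 CPM, which was 4.00% of the excitatory level. For comparison Myt1l, a neuronal gene, was there at 2.15% of its excitatory level, from 96 UMIs. The 15 classes of a gene form 14 neighbouring pairs in its order, and 8 of those of Nrxn3 differed (exact two-sided sign-flip permutation test over animals, Benjamini-Hochberg adjusted over the 126 pairs of the 9 genes).

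Nrxn2 was highest in OPC-like nuclei, at 490.0 ± 84.1 CPM, and above the Vip-like class, the next in order, in 12 of 12 animals (exact sign-flip permutation test, p = 0.000488, the smallest it can give with 12 animals, adjusted p = 0.00410). Among neurons its range was narrow, 2.60-fold from 230.3 ± 44.3 CPM in Vip-like to 88.7 ± 11.7 CPM in Pvalb-like nuclei. L2/3 IT-like nuclei (165 ± 21.8) exceeded Sst-like nuclei (132 ± 14.6), the next class in the order. The other 12 neighbouring pairs, which include all pairs from Sst-like down to Pvalb-like and oligodendrocyte-like (70.4 ± 19.4), did not differ beyond the spread between animals.

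**Figure D1:**
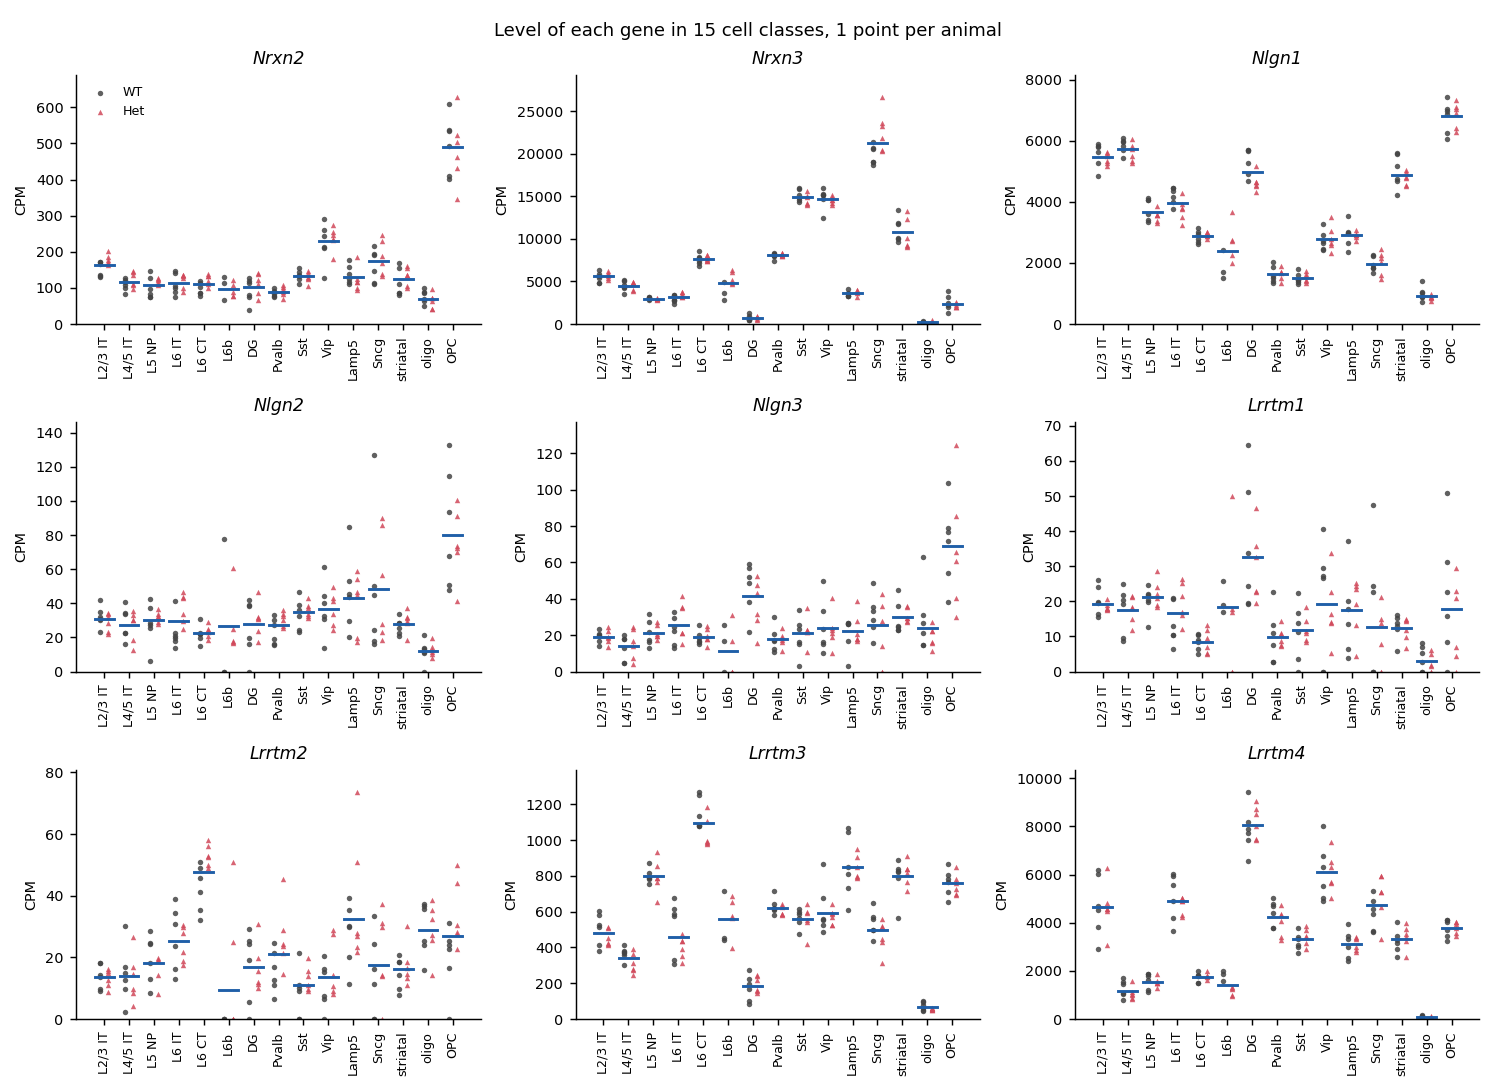
Level of each of the 9 genes in CPM (linear axis from 0) in 15 cell classes. Circles are WT and triangles Het animals with at least 10 nuclei in the class (12 animals, 8 for L6b), and blue bars are means over animals. Nrxn3 peaks in Sncg, Lrrtm4 in DG, Lrrtm3 and Lrrtm2 in L6 CT, and Nrxn2 and the 3 neuroligins in OPC nuclei.

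Of the 15 classes, all 3 neuroligins had their highest mean CPM in OPC-like nuclei. The median UMIs per nucleus were 2250 in OPC-like, 3288 in L4/5 IT-like and 3454 in L2/3 IT-like nuclei. An order by CPM therefore need not hold for UMIs per nucleus. Nlgn1, the neuroligin of glutamatergic synapses, stood at 6809.6 ± 448 CPM in OPC-like nuclei, above L4/5 IT-like (5727 ± 280.3) and L2/3 IT-like nuclei (5478 ± 306). DG-like (4979 ± 504) and striatal projection-like nuclei (4892 ± 413) followed, and L6 CT-like nuclei were lower at 2894 ± 152 CPM. Its 2 lowest neuronal classes were the Pvalb-like (1629 ± 221) and Sst-like interneurons (1508 ± 156). The Lamp5-like class (2911 ± 281) did not differ from L6 CT-like nuclei, its neighbour in the order. Oligodendrocyte-like nuclei were at 933 ± 178 CPM, 21.1% of the excitatory level, which is a larger share than that of Myt1l. For Nlgn1, 5 of 14 neighbouring pairs differed.

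Nlgn2, the neuroligin of GABAergic synapses, and Nlgn3 were sparse, and their orders are less certain. The level of Nlgn2 was 79.8 ± 27.7 CPM in OPC-like nuclei, 48.6 ± 35.5 in Sncg-like, 43.2 ± 19.5 in Lamp5-like and 22.7 ± 4.37 in L6 CT-like nuclei, the lowest neuronal class. The only neighbouring pair of Nlgn2 that differed was L6 CT-like over oligodendrocyte-like (12.3 ± 5.43). Nlgn3 was at 69.2 ± 27.6 CPM in OPC-like nuclei and 41.3 ± 14.3 in DG-like nuclei, a difference of 0.72 log2 units, and no later pair in its order differed. In oligodendrocyte-like nuclei Nlgn3 was at 23.9 ± 13.8 CPM, 123% of its excitatory level, against 44.8% for Nlgn2.

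By mean level, Lrrtm4 and Lrrtm1 were highest in DG-like nuclei. Lrrtm3 and Lrrtm2 were highest in L6 CT-like nuclei, with Lamp5-like nuclei next. The orders of the 4 LRRTMs were not tested against each other. Lrrtm4, known for its abundance in dentate granule cells, reached 8041 ± 792 CPM in DG-like nuclei, 0.41 log2 units above the Vip-like class (6090.2 ± 981) in 12 of 12 animals. L6 IT-like (4894 ± 719), Sncg-like (4738 ± 872) and L2/3 IT-like nuclei (4661 ± 1097) were similar in mean. Between Lamp5-like (3117 ± 441) and L6 CT-like nuclei (1752 ± 155) the level dropped by 0.82 log2 units in 12 of 12 animals, and L4/5 IT-like nuclei were the lowest neurons at 1177 ± 317 CPM. L2/3 and L4/5 IT-like neurons, neighbours in the cortex, thus had 4661 and 1177 CPM of Lrrtm4. In oligodendrocyte-like nuclei it was at 3.40% of the excitatory level.

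Lrrtm3 was highest in L6 CT-like nuclei at 1094 ± 101 CPM and 0.37 log2 units lower in Lamp5-like nuclei, again in 12 of 12 animals. It fell to 338 ± 53.8 CPM in L4/5 IT-like and 185 ± 57.8 CPM in DG-like nuclei, the class where Lrrtm4 peaked. Lrrtm2 was also highest in L6 CT-like nuclei, at 47.7 ± 7.91 CPM against 32.6 ± 16.4 in Lamp5-like and 13.5 ± 3.29 in L2/3 IT-like nuclei. It was at 115% of its excitatory level in oligodendrocyte-like nuclei (29.0 ± 8.32). Lrrtm1 averaged 32.7 ± 14.6 CPM in DG-like nuclei, 21.2 ± 3.90 in L5 NP-like and 19.3 ± 3.04 in L2/3 IT-like nuclei, and 8.44 ± 2.75 in L6 CT-like nuclei. Of the 14 pairs each, 5 differed for Lrrtm3, 3 for Lrrtm4, 1 for Lrrtm2 and 1 for Lrrtm1. In all, 27 of the 126 neighbouring pairs of the 9 genes differed.

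Over the 15 classes the most alike pairs among the 9 genes were Nrxn2 and Nlgn2 (Pearson r = 0.84 of mean log2(CPM + 1)), Nlgn1 and Lrrtm1 (r = 0.76) and Nrxn3 and Lrrtm3 (r = 0.75). The lowest was Nrxn3 with Lrrtm2 (r = -0.28). Classes share their libraries, so these values describe 15 points and carry no test. Among 11846 genes with at least 10 CPM in 1 class, the closest to Nrxn3 were Gm48692 (r = 0.96) and Gm48700 (r = 0.91), genes of unknown function annotated inside Nrxn3 on its strand, and then Cit (r = 0.89). The same held for Lrrtm4, with Gm44230 (r = 0.98) and Gm20371 (r = 0.96) inside it and Adcyap1r1 (r = 0.94), the gene of the PACAP receptor, outside it. Lrrtm3 was most like Shc3 (r = 0.91), Adgrl3 (r = 0.88), which encodes a latrophilin, and Farp1 (r = 0.87). Nlgn1 was closest to Gp1bb (r = 0.88), Pde7b (r = 0.86) and Sept5 (r = 0.86), and Nrxn2 to Als2cl (r = 0.88), Ccnd1 (r = 0.87) and Tnfrsf11b (r = 0.86). For the sparse genes the nearest were Chic2 (r = 0.91), Cspg5 (r = 0.88) and Scml2 (r = 0.88) for Nlgn2, Bahcc1 (r = 0.93), Fubp1 (r = 0.92) and Calr (r = 0.91) for Nlgn3, Neurl1a (r = 0.87), Eef2k (r = 0.86) and Ifngr2 (r = 0.86) for Lrrtm1, and Trappc2 (r = 0.89), Ythdf1 (r = 0.88) and Pfas (r = 0.88) for Lrrtm2.

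Excitatory and inhibitory nuclei of the same animal were then compared. Excitatory nuclei were the 6 named cortical classes with those of the unnamed L5 IT and L5 ET profiles. Inhibitory nuclei were the 5 interneuron classes, so DG-like and striatal projection-like nuclei were in neither. The L5 ET profile (584 nuclei) held 1 of its own markers among its leading genes. Pde11a, Gm10754, Gm2115, Gpr161 and Pkp2 led both it and the unnamed CA1 profile. Whether its nuclei are L5 ET neurons was not tested, nor was the excitatory sum without them. Of the 9 genes, 6 passed the test (edgeR quasi-likelihood test with animal as a block, Benjamini-Hochberg adjusted p under 0.05 and a log2 difference over 0.2). Many genes did so, 55.4% of the 13049 tested, with 28.1% higher and 27.3% lower in inhibitory nuclei, so a count of 6 is near the background. Of the calls over all genes 50.7% were higher, and 39.4% without the filter on low counts. A sum over a broad class cannot tell a change in its mix of subclasses from a change per nucleus.

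Nrxn3 in excitatory nuclei ranged from 4939.7 to 5883 CPM (median 5388) and in inhibitory nuclei from 10089 to 11314 CPM (median 10781). The ranges did not overlap, and inhibitory nuclei were higher in 12 of 12 animals by 0.92 log2 units (SE 0.03, edgeR adjusted p = 9.68e-30). Nrxn2 did not pass the test, at -0.08 log2 units (SE 0.05, edgeR adjusted p = 0.143, 95% interval -0.17 to 0.01), but passed with all deposited barcodes, at -0.22 (edgeR adjusted p = 5.20e-08). In WT animals its mean difference was 0.09 ± 0.15 and in Het animals -0.12 ± 0.16 (SD, n = 6 each; exact two-sided permutation test of the genotypes, p = 0.0476, adjusted over the 9 genes p = 0.325). For none of the 9 genes did this difference between genotypes pass after adjustment.

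Nlgn1 went the other way from Nrxn3. It ranged from 4111 to 4946 CPM (median 4353) in excitatory and from 1786 to 2273 CPM (median 1997) in inhibitory nuclei, again without overlap. Inhibitory nuclei were lower in 12 of 12 animals, with a difference of -1.23 log2 units (SE 0.03, edgeR adjusted p = 6.16e-35). Nlgn2 was higher in inhibitory nuclei in 10 of 12 animals (25.4 to 49.2 CPM, median 33.2) than in excitatory nuclei (21.6 to 32.0 CPM, median 27.4), by 0.24 log2 units (SE 0.07, edgeR adjusted p = 0.00586). These ranges overlapped, and the call was lost without the filter on low counts, with all deposited barcodes and in WT animals alone. Nlgn3 differed by 0.04 log2 units (SE 0.09, edgeR adjusted p = 0.727, 95% interval -0.14 to 0.22).

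**Figure D2:**
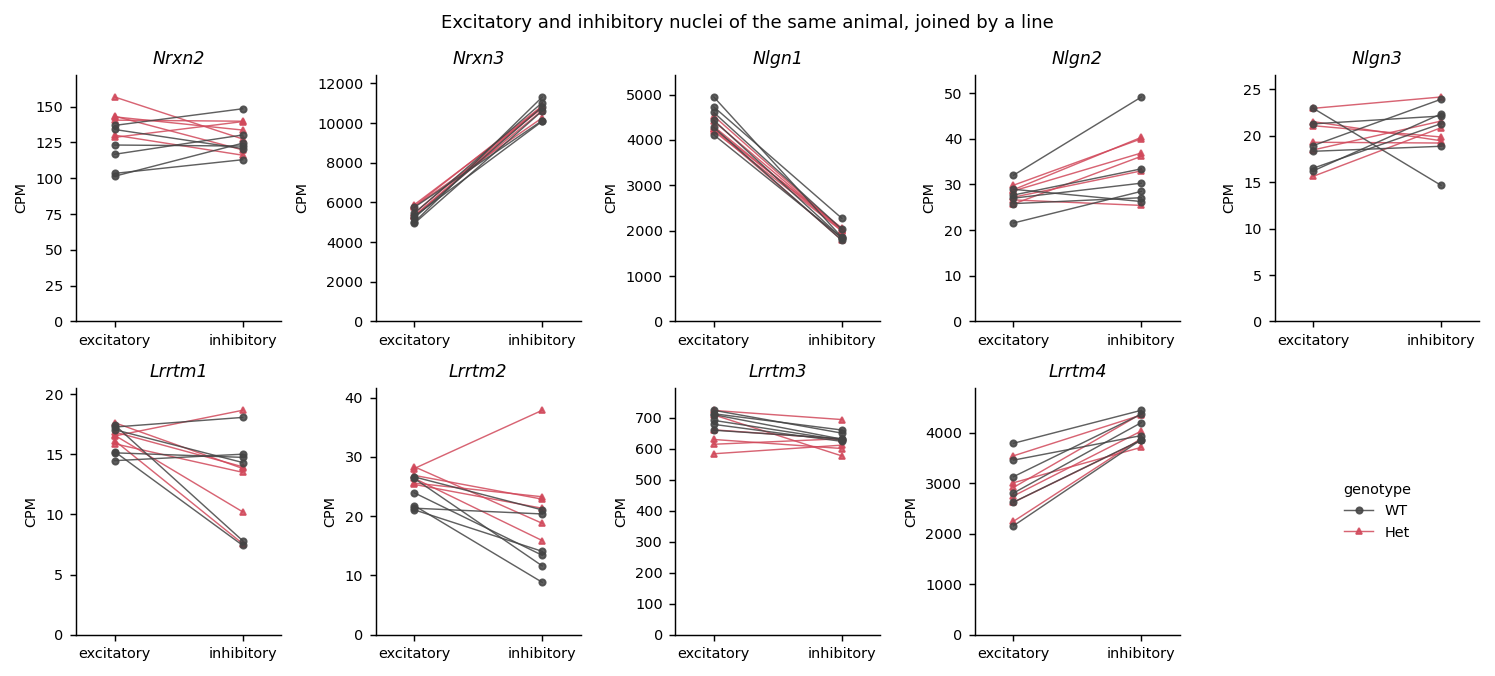
Level of each gene in CPM (linear axis from 0) in the excitatory and inhibitory nuclei of each animal, joined by a line, with WT as dark circles and Het as red triangles. Every line rises for Nrxn3 and Lrrtm4, every line falls for Nlgn1, and the lines of Nrxn2 and Nlgn3 cross.

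Of the LRRTMs, Lrrtm4 was higher in inhibitory nuclei in 12 of 12 animals, by 0.44 log2 units (SE 0.06, edgeR adjusted p = 2.23e-05). Its excitatory values ran from 2158 to 3793 CPM (median 2863) and its inhibitory values from 3714 to 4447 CPM (median 3992), so the ranges overlapped at the edge although every animal moved one way. With all deposited barcodes the difference was 0.17, under the limit of 0.2. Lrrtm2 was lower in inhibitory nuclei in 11 of 12 animals (8.85 to 37.9 CPM, median 19.6) than in excitatory nuclei (21.1 to 28.3 CPM, median 26.0), with a difference of -0.45 log2 units (SE 0.10, edgeR adjusted p = 0.000253). Lrrtm1 was lower in 9 of 12, with a difference of -0.36 log2 units (SE 0.11, edgeR adjusted p = 0.00485). Inhibitory nuclei held 309 UMIs of Lrrtm2 and 213 of Lrrtm1 over all animals, and with WT animals alone the call of Lrrtm1 was lost, with Het animals alone that of Lrrtm2. For Lrrtm3 the difference was -0.15 log2 units (SE 0.03, edgeR adjusted p = 3.59e-05), which is smaller than the limit of 0.2. It passed without the filter on low counts (-0.24) and under the stricter marker rule (-0.25).

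Myt1l itself was examined first. The counts do not separate the alleles, and in excitatory nuclei Het was not lower than WT, so the level of Myt1l gave no check of the genotype labels. In excitatory nuclei it ranged from 928 to 1123 CPM (median 989) in WT and from 1078 to 1272 CPM (median 1137) in Het, a difference of 0.17 (SE 0.06, edgeR adjusted p = 0.283), and in L6 CT-like nuclei the difference was 0.23 (SE 0.06, edgeR adjusted p = 0.0754). Myt1l passed the test in no class.

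Het was then compared with WT in each class for the 9 genes, the comparison for which the animals were bred. None of the 9 genes passed the test in any of the 15 classes (edgeR quasi-likelihood test, Benjamini-Hochberg adjusted p under 0.05 and a log2 difference over 0.2), nor in excitatory, inhibitory or all nuclei. DESeq2 called none either. Few genes of any kind were called, namely 0.574% of those tested in L6 CT-like, 0.226% in L6 IT-like, 0.137% in L4/5 IT-like, 0.0555% in Lamp5-like, 0.0424% in Vip-like, 0.0352% in DG-like and 0.022% in Sst-like nuclei, and 0% in the 8 other classes. In excitatory nuclei it was 0.323%, in inhibitory nuclei 0.0453% and in all nuclei 0%. Enough counts for a test were present in 15 classes for Nrxn3, Nlgn1, Lrrtm3 and Lrrtm4, in 14 for Nrxn2, 9 for Nlgn2, 7 for Lrrtm2, 5 for Nlgn3 and 4 for Lrrtm1. Of these 99 tests 43 were higher and 56 lower in Het, 13 had an unadjusted p under 0.05, and the smallest adjusted p was 0.154 by edgeR. The classes come from the same animals, so counts of direction over classes are not independent. Such counts were not made for all genes. The share of all genes with an unadjusted p under 0.05 was between 3.46% and 9.71% in the 15 classes.

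**Figure D3:**
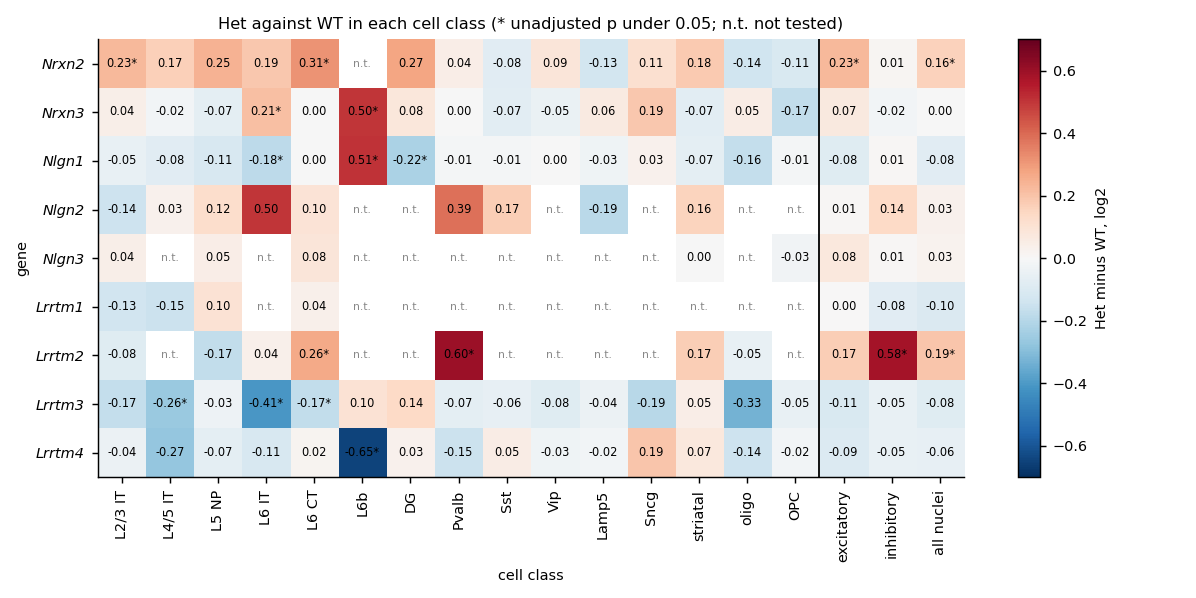
Het minus WT in log2 units for each gene (rows) in each class (columns), with a colour scale from -0.7 to 0.7. A star marks an unadjusted p under 0.05 and n.t. a gene with too few counts. The row of Nrxn2 is red in all 6 glutamatergic classes tested, and no cell passed adjustment.

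Nrxn2 was the gene with the smallest adjusted p, and it was higher in Het in 10 of 14 classes tested (median 0.14 log2 units). In the 6 glutamatergic classes tested, DG-like included, the differences were 0.17 to 0.31 (median 0.24). Among the other classes they ran from -0.14 in oligodendrocyte-like to 0.18 in striatal projection-like nuclei. The difference of this effect between excitatory and inhibitory nuclei did not pass after adjustment, as given above. In excitatory nuclei WT animals ranged from 101 to 137 CPM (median 119.9) and Het animals from 129 to 157 CPM (median 142). The ranges overlapped, with 4 of 6 Het animals above the highest WT animal, and the difference was 0.23 log2 units (SE 0.07, unadjusted p = 0.00358, edgeR adjusted p = 0.219). In L6 CT-like nuclei the values ran from 78.4 to 119 CPM (median 95.1) in WT and from 100.2 to 139 CPM (median 126) in Het, a difference of 0.31 (SE 0.10, edgeR adjusted p = 0.154). In L2/3 IT-like nuclei they ran from 130.4 to 172 CPM (median 151) and from 163 to 202 CPM (median 174), a difference of 0.23 (SE 0.08, edgeR adjusted p = 0.509). In inhibitory nuclei both genotypes lay together, with a difference of 0.01 (SE 0.08, 95% interval -0.14 to 0.17). UMIs per excitatory nucleus ranged from 3275 to 3570 in WT animals and from 3398 to 3656 in Het animals.

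With all deposited barcodes, which add, among others, nuclei above the upper limit of 6000 UMIs, Nrxn2 passed the test in L2/3 IT-like and in excitatory nuclei. UMIs per excitatory nucleus then spread more widely, from 6175 to 7880 in WT animals and from 5579 to 8162 in Het animals, and their part in the result was not tested. In L2/3 IT-like nuclei WT then ranged from 112 to 147 CPM (median 124) and Het from 149.8 to 179 CPM (median 160.3), with all 6 Het animals above every WT animal, and the difference was 0.33 log2 units (SE 0.06, edgeR adjusted p = 0.0287, where 0.108% of genes were called). In excitatory nuclei the difference was 0.27 (SE 0.05, edgeR adjusted p = 0.0330, background 0.484%), also without overlap. Nrxn2 did not pass in L6 CT-like nuclei (0.27, SE 0.07, edgeR adjusted p = 0.0829) or in inhibitory nuclei (0.10, SE 0.06, edgeR adjusted p = 0.978). With single animals left out in turn the L2/3 IT-like difference stayed between 0.30 and 0.38, but its adjusted p stayed under 0.05 only without WT male 1, WT male 2 or Het male 1, and was up to 0.126 without any of the other animals. The excitatory call stayed only without WT male 1, WT male 2, WT female 2 or Het male 1, with differences from 0.23 to 0.30.

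The barcodes outside the limits share no nucleus with those inside them, though they come from the same animals. In L2/3 IT-like nuclei they are 6969 of the 9341 deposited WT barcodes and 7448 of the 10431 deposited Het barcodes. Their result is therefore not independent of the call with all barcodes. Taken alone, a choice made after the data were seen, they gave L2/3 IT-like values from 109.6 to 145 CPM (median 123) in WT and from 149 to 170.0 CPM (median 158) in Het. The groups did not overlap, and the difference of 0.34 (SE 0.06, edgeR adjusted p = 0.0225, background 0.112%) passed. So did the excitatory difference of 0.27 (SE 0.05, edgeR adjusted p = 0.0408, background 0.27%). In L6 CT-like nuclei the same barcodes gave 0.24 (SE 0.07, edgeR adjusted p = 0.196, background 0.461%) and in inhibitory nuclei 0.13 (SE 0.07, edgeR adjusted p = 0.997, background 0%), which did not pass. Whether barcodes with over 6000 UMIs hold more than 1 nucleus was not tested. Without the filter on low counts Nrxn2 passed in L6 CT-like nuclei, at 0.36 (edgeR adjusted p = 0.0433, background 0.397%).

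**Figure D4:**
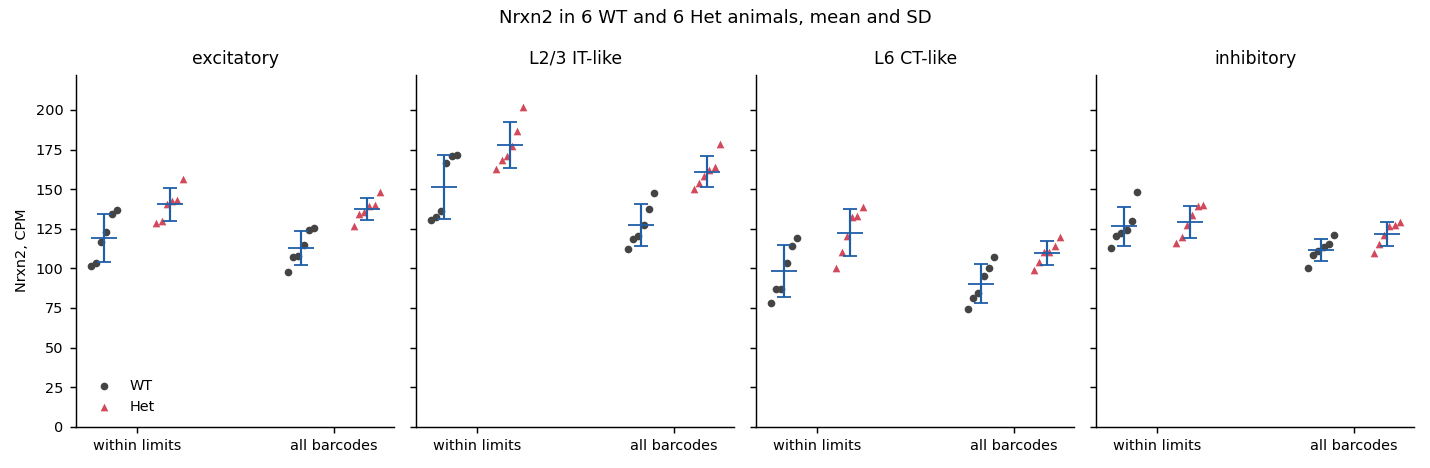
Nrxn2 in CPM (linear axis from 0) in 6 WT animals (circles) and 6 Het animals (triangles), with the mean and SD in blue, for barcodes within the limits and for all deposited barcodes. Points are sorted by value within a group. Groups overlap within the limits in all 4 panels, and with all barcodes the excitatory and L2/3 IT-like groups separate.

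Nrxn3, the other neurexin, passed the test in no class under any alternative run. In excitatory nuclei it differed by 0.07 log2 units (SE 0.05, 95% interval -0.03 to 0.17) and in inhibitory nuclei by -0.02 (SE 0.05, 95% interval -0.12 to 0.08). L6 IT-like nuclei had 0.21 (unadjusted p = 0.0161, edgeR adjusted p = 0.459) and L6b-like nuclei, from 3 WT and 5 Het animals, 0.50 (edgeR adjusted p = 0.649).

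Nlgn1 was lower in Het in 13 of 15 classes, by small amounts with a median of -0.03 log2 units. The lowest was DG-like, where WT ranged from 4665 to 5709 CPM (median 5469) and Het from 4318 to 5162 CPM (median 4594), overlapping groups that differed by -0.22 (SE 0.08, unadjusted p = 0.00564, edgeR adjusted p = 0.400). L6 IT-like nuclei had -0.18 (edgeR adjusted p = 0.488) and L6b-like nuclei, from 3 WT and 5 Het animals, 0.51 (edgeR adjusted p = 0.754). The L6b-like difference turned to -0.03 with the barcodes outside the limits. In excitatory nuclei the difference was -0.08 (SE 0.05, 95% interval -0.18 to 0.02). Nlgn2 had 0.01 in excitatory nuclei (95% interval -0.17 to 0.18) and 0.14 in inhibitory nuclei (95% interval -0.15 to 0.43). Without WT male 1 the inhibitory difference of Nlgn2 was 0.27, and over all animals left out in turn it ran from 0.09 to 0.27 without passing. Nlgn3 had 0.08 (95% interval -0.13 to 0.29) and 0.01 (95% interval -0.30 to 0.31). The intervals of Nlgn2 in inhibitory nuclei and of Nlgn3 in both reach past the limit of 0.2.

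Lrrtm3 was lower in Het in 12 of 15 classes, with a median of -0.07 log2 units. In L6 CT-like nuclei, where it is highest, WT ranged from 1078 to 1267 CPM (median 1109.6) and Het from 979 to 1184 CPM (median 991), a difference of -0.17 (SE 0.07, unadjusted p = 0.0146, edgeR adjusted p = 0.313). The groups overlapped, and Ctnna3, the gene it lies in on the other strand, differed there by -0.28 (SE 0.08, edgeR adjusted p = 0.106). L4/5 IT-like nuclei had -0.26 (edgeR adjusted p = 0.468) and L6 IT-like nuclei -0.41 (edgeR adjusted p = 0.592), beside -0.28 and -0.08 for Ctnna3. Of the UMIs of Lrrtm3 0.26% were lost when fractions were dropped.

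Lrrtm2 was sparse. In inhibitory nuclei WT ranged from 8.85 to 21.1 CPM (median 13.7) and Het from 15.9 to 37.9 CPM (median 22.1), overlapping groups 0.58 log2 units apart (SE 0.21, unadjusted p = 0.00824, edgeR adjusted p = 0.605). Pvalb-like nuclei had 0.60 (edgeR adjusted p = 0.937) and L6 CT-like nuclei 0.26 (edgeR adjusted p = 0.438). Its host Ctnna1 differed by -0.09 in inhibitory and 0.00 in L6 CT-like nuclei. Lrrtm4 was, of the 9 genes, the one with the largest spread relative to its mean within each genotype in excitatory nuclei, from 2158 to 3793 CPM (median 2969) in WT and from 2246 to 3545 CPM (median 2834) in Het, which left an interval of -0.38 to 0.19 around -0.09. With single animals left out that difference ran from -0.17 to -0.01. Only in L6b-like nuclei did the genotypes of a gene of the 9 not overlap within the limits. Lrrtm4 ranged there from 1582 to 2013 CPM (median 1883) in 3 WT and from 949 to 1350.2 CPM (median 1242) in 5 Het animals. The difference was -0.65 (SE 0.19, edgeR adjusted p = 0.556), and barcodes outside the limits gave 0.05. The share of all genes without overlap in so few animals was not counted, and 0 of 1117 genes tested passed in L6b-like nuclei. Lrrtm1 differed by 0.00 (95% interval -0.19 to 0.20) in excitatory and -0.08 (95% interval -0.52 to 0.35) in inhibitory nuclei, and its host Ctnna2 by -0.04 in excitatory nuclei. In excitatory nuclei Lrrtm1 turned to -0.15 with all deposited barcodes (unadjusted p = 0.0226, edgeR adjusted p = 0.454) and to -0.17 with those outside the limits (unadjusted p = 0.0202, edgeR adjusted p = 0.456).

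Partner genes of these proteins give the wider pathway. Of 41 found, from secreted organizers and presynaptic binding proteins to postsynaptic scaffolds, 2 of 446 class tests passed, 1 higher and 1 lower in Het. The higher one was 1 of 37 partners tested in L6 CT-like nuclei, where 0.574% of all genes passed. The lower one was 1 of 34 tested in L4/5 IT-like nuclei, where 0.137% of all genes passed. Whether partners passed more often than other genes was not tested. Mdga1 encodes a membrane protein that binds neuroligins and blocks their contact with neurexins. In L6 CT-like nuclei it ranged from 23.8 to 38.2 CPM (median 26.3) in WT and from 38.4 to 65.0 CPM (median 45.2) in Het, without overlap, and was higher by 0.70 (SE 0.15, edgeR adjusted p = 0.0173). That call was lost without WT male 3 or without Het female 1 (differences from 0.61 to 0.84, adjusted p up to 0.0767). Tafa1 encodes a secreted ligand of neurexins. In L4/5 IT-like nuclei it ranged from 1404 to 2319.8 CPM (median 1876) in WT and from 1142 to 1572 CPM (median 1334) in Het with a difference of -0.50 log2 units (SE 0.10, edgeR adjusted p = 0.0499). It kept that call only without WT male 2, WT female 1 or Het male 2, with differences from -0.56 to -0.43.

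In the broad classes no partner passed. In excitatory nuclei, where 0 of 39 partners tested passed and 15 had an unadjusted p under 0.05 (8.77% of all genes tested), the smallest p-values were those of Shank1, a postsynaptic scaffold (0.22, SE 0.07, edgeR adjusted p = 0.177), and Mdga1 (0.32, SE 0.10, edgeR adjusted p = 0.227). In inhibitory nuclei 0 of 35 passed and 10 had an unadjusted p under 0.05 (6.21% of all genes tested), led by Clstn3, which encodes calsyntenin-3 (0.28, SE 0.08, edgeR adjusted p = 0.228), and the scaffold gene Shank2 (0.24, SE 0.08, edgeR adjusted p = 0.445). For Clstn3 the inhibitory values ran from 114.5 to 145.2 CPM (median 128.5) in WT and from 145.3 to 168.6 CPM (median 157.8) in Het, which touched but did not overlap. DESeq2 also gave 2 calls over the classes, Tafa1 in L4/5 IT-like and Shank2 in L6 CT-like nuclei. All deposited barcodes gave Clstn3 and Mdga1, both in L6 CT-like nuclei. The call of Mdga1 was thus lost with DESeq2, and that of Tafa1 with all deposited barcodes. The share of all genes called was not set beside these counts, so they are not read against a background.

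Nlgn3 lies on the X chromosome, so sex was compared with genotype as a second term. In excitatory nuclei Nlgn3 ranged from 16.5 to 23.0 CPM (median 19.1) in 6 females and from 15.6 to 22.9 CPM (median 19.8) in 6 males, overlapping groups with a male minus female difference of 0.02 (SE 0.11, 95% interval -0.19 to 0.24). In inhibitory nuclei the difference was 0.04 (SE 0.16, 95% interval -0.26 to 0.35). None of the 9 genes differed between the sexes by the test, in excitatory nuclei (background 0.0507%) or inhibitory nuclei (background 0.0751%), by edgeR or DESeq2, and none had an unadjusted p under 0.05. None of the 9 passed for the interaction of genotype and sex either (background 0.00708% and 0%). The smallest interaction p-values were those of Lrrtm4 in excitatory nuclei (-0.56, unadjusted p = 0.0435, edgeR adjusted p = 0.810) and Nlgn2 in inhibitory nuclei (-0.59, unadjusted p = 0.0470, edgeR adjusted p = 1.00). With 3 animals of each sex and genotype the interaction has little precision.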

How the data were processed

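Reads were mapped to mm10 and counted by the authors with ScaleRna, and nuclei were called with CellFinder, before deposit. The deposited values are expected counts of UMIs, not normalized and including fractions of a UMI, and 92.6% of entries were whole. Submitters' processing notes also name Seurat 4.3.0 and DESeq2 1.38.3. The limits of the paper were applied, namely UMIs from 800 to 6000, genes from 300 to 3000, a mitochondrial share no higher than 1% and log genes divided by log UMIs no lower than 0.9. The methods remove multiplets, but whether they were removed from the deposited matrices is not given in the sources used here. No doublet caller was run, and nuclei close to 2 class profiles (a log likelihood margin under 5) were left out. The deposited barcodes are fewer than the nuclei the methods state. Reference nuclei (8571) were picked by marker UMIs, and each nucleus was assigned to the nearest class profile with at least 1 own marker UMI (3 for non-neuronal classes). In no class were 7518 nuclei, and 1200 in classes left unnamed.

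Counts were summed per animal and class with at least 10 nuclei, rounded to whole numbers, and tested with edgeR 4.0.16 (TMM, filterByExpr, robust quasi-likelihood) in R 4.3.3, with genotype as the only term, as in the study's design. DESeq2 1.42.0 was an alternative. Adjustment is by Benjamini-Hochberg over all genes tested, tests are two-sided, and 95% intervals are the estimate ± 1.96 SE. These intervals use a normal quantile and can be too narrow. For Lrrtm2 in excitatory nuclei, Het minus WT, the interval of 0.0019 to 0.347 excludes equal levels although edgeR gave an unadjusted p = 0.0584. Classes were ordered by mean CPM and neighbours tested on log2(CPM + 1) by exact sign flips. Intervals between animals rest on labels that give separate animals. No pair of libraries of a group agreed within sampling noise (chi-square of at least 2.47 per gene). Scripts were tested on simulated data. Python 3.11.15 with numpy 2.4.6, scipy 1.17.1 and pandas 2.3.3 was used. The genes, classes and partner lists were chosen with earlier results of these data known. Named besides the 9 genes are the partners called in a class or with the 2 smallest p-values in excitatory and inhibitory nuclei, the host genes, Myt1l and the 3 genes most like each of the 9. Alternatives covered the tool, normalization, low-count filter, barcode limits, marker rule, nuclei of mixed class, fractions of UMIs, sex, the replicate block and each animal. Added after the data were seen were the barcodes outside the limits, single animals left out for Nrxn2 with all barcodes and for the partners, and the test of the class difference between genotypes. E14 and P1 samples were not analysed here.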

Additional observations from a re-analysis of the deposited data

Results flagged for a closer look

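In 77 groups of 4 to 6 animals, the highest and lowest were compared with the rest by Dixon's criterion at 95%, which chance passes in about 1 of 20 groups. An animal stood apart in 3, all in inhibitory nuclei. Nlgn1 was at 1795 CPM in Het male 2, against 1993 to 2060 CPM in the 5 other Het animals. Nlgn2 was at 49.2 CPM in WT male 1, against 26.3 to 33.4 CPM in the 5 other WT animals. Lrrtm2 was at 37.9 CPM in Het female 2, against 15.9 to 23.3 CPM in the 5 other Het animals. Each is a different animal, and none of these 3 genes was called between genotypes in inhibitory nuclei with or without that animal.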

How the results depend on the processing

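Between inhibitory and excitatory nuclei, 178 of 189 alternative values for the 9 genes kept their direction and their side of the threshold, 6 fell out of the call, 3 entered it and 2 changed sign. The count stayed at 6 with each animal left out. The sign changes were those of genes that were not called, Nrxn2 with WT animals alone (0.0527) and Nlgn3 without the low-count filter (-0.0454). Dropping the filter moved the median of all genes to -0.22 and the share of higher calls to 39.4% (50.7% with it), and DESeq2, which tested 21589 genes rather than 13049, put the median at 0.38. Lost were Nlgn2 without the filter (0.15), with all barcodes (0.08) and in WT animals alone (0.17), Lrrtm1 in WT animals alone (-0.31), Lrrtm2 in Het animals alone (-0.29, adjusted p = 0.0506) and Lrrtm4 with all barcodes (0.17). Gained were Nrxn2 with all barcodes (-0.22) and Lrrtm3 without the filter (-0.24) and under the stricter marker rule (-0.25). The cause was not tested. All barcodes raised the count of neighbouring classes that differ from 27 to 43 of 126 and the stricter marker rule gave 24, and under both the highest class of each of the 9 genes was as before. Between genotypes the count over the classes moved from 0 to 1 without the low-count filter, to 2 with all barcodes and to 2 with the barcodes outside the limits, each time Nrxn2. It stayed 0 with each animal left out. Partner genes gave 0 to 3 calls with single animals left out.

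Replicate numbers did not pair the animals: correlations of deviations ran from -0.15 to 0.15, with 3 of 6 pairs over 0.1 and 3 of 6 WT animals closest to their own number. The replicate block changed no call and 1 sign, that of Nlgn3 in inhibitory nuclei (-0.00131).

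Of 870 alternative values between genotypes 807 kept direction and side, 12 entered the call, all of Nrxn2, and 51 changed sign, none of them called. With single animals left out the log2 values with sign changes ranged, in excitatory nuclei, from -0.0317 to 0.0636 (Nlgn2) and -0.0233 to 0.0306 (Lrrtm1), in inhibitory nuclei from -0.0226 to 0.0527 (Nrxn2), -0.0219 to 0.0595 (Nlgn1), -0.0456 to 0.0541 (Nlgn3) and -0.226 to 0.0506 (Lrrtm1), and in all nuclei from -0.0501 to 0.0309 (Nrxn3), -0.0215 to 0.115 (Nlgn2), -0.0150 to 0.0726 (Nlgn3) and -0.131 to 0.0299 (Lrrtm4). All barcodes turned Lrrtm1 in excitatory (-0.146), Nlgn1 in inhibitory (-0.0308) and Nrxn3 in all nuclei (0.0318). Barcodes outside the limits turned Lrrtm1 in excitatory (-0.172), Nlgn1 (-0.0501) and Nrxn3 (0.00577) in inhibitory, and Nlgn1 (-0.0296) and Lrrtm4 (0.0524) in L6b-like nuclei. The stricter marker rule turned Nrxn2 (-0.0382), Nlgn1 (-0.0533) and Nlgn3 (-0.00781) in inhibitory nuclei. Keeping mixed nuclei turned Lrrtm1 in excitatory nuclei (-0.0115), dropping the filter turned Nrxn3 in all nuclei (0.0132), and whole UMIs alone turned Nlgn3 in all nuclei (-0.00503). Depth limits the genes with few UMIs, Nlgn2, Nlgn3, Lrrtm1 and Lrrtm2, which were not tested in 6 to 11 of the 15 classes.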

Other observations

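The 41 partner genes were also compared between inhibitory and excitatory nuclei of the same animals. Of 40 tested, 10 were higher and 21 lower in inhibitory nuclei by edgeR, with a median of -0.31 log2 units against 0.01 for all genes. Over all genes tested 28.1% were higher and 27.3% lower. Of presynaptic and secreted partners 6 were higher and 9 lower of 17, of postsynaptic partners and scaffolds 4 were higher and 10 lower of 19, and of other ligands of neurexins 2 were lower of 3. Tafa1, a secreted neurexin ligand, differed by -4.66 (SE 0.12) and Mdga1, which binds neuroligins, by -3.83 (SE 0.17). Both genes were higher in excitatory nuclei, at 1297 and 31.7 CPM there against 52.5 and 2.67 CPM in inhibitory nuclei. Each passed between genotypes in an excitatory class. For Mdga1 no test between genotypes was possible in inhibitory nuclei or an interneuron class, where its counts were too few. Tafa1 was tested in inhibitory nuclei and did not pass (-0.13, SE 0.25, edgeR adjusted p = 0.981). The scaffold genes Shank1 and Shank2 differed by -0.34 (SE 0.04) and -1.08 (SE 0.04), while Clstn3, the gene of calsyntenin-3, was higher in inhibitory nuclei by 0.83 (SE 0.04).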
